A study of Sus scrofa with 37 samples.

Results

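Beta and alpha cells sorted from the pancreas of pigs (Sus scrofa) at post natal day 22 (P22) were compared with the same cell types at post natal day 8 (P8). The comparison used 9 of the 37 libraries of the series: 2 of beta cells at P8, 3 of beta cells at P22, 2 of alpha cells at P8 and 2 of alpha cells at P22, chosen by their labelled age and cell type. The series as a whole followed purified beta, alpha and delta cells from the fetus to P22 by RNA sequencing. The labels record no genotype, treatment, strain, sex, animal or batch for any of the 4 groups, and they do not say whether cells of several pigs were pooled or whether replicates came from separate animals. The p-values below therefore measure the spread between these libraries, which may in part be technical. All values are TPM (each gene's share of a library's transcripts after scaling for transcript length, with every library set to the same total), so sequencing depth is unknown, and in such bulk libraries fewer cells of a type and less RNA per cell cannot be told apart.

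Beta cells make, store and secrete insulin, and alpha cells do the same with glucagon. In mammals the weeks after birth are the time when islet cells slow their division, change from fetal nutrient supply to milk and then to solid feed, and acquire the regulated hormone secretion of the adult. Interferons, which cells release on sensing viral nucleic acid, act through the JAK and STAT proteins to raise a common set of antiviral genes in most cell types, islet cells included.

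The defining markers matched the labelled cell types. INS (insulin) took 35.8 and 32% of all TPM in the beta libraries of P8 and 26.9, 23.9 and 35% in those of P22, against 0.391% or less in the 4 alpha libraries. GCG (glucagon) took 10.1 and 9.74% in the alpha libraries of P8 and 9 and 9.47% in those of P22, against 0.00895% or less in beta cells. The alpha cell factors IRX1 and IRX2 stayed at or below 3.78 TPM in every beta library. Between 13759 and 15065 genes reached 1 TPM in a library, and 2 abundant identifiers without a symbol took 7.52 to 22.7% of the TPM. Pairwise correlations of log2(TPM + 1) were 0.891 to 0.93 within a group, 0.859 to 0.923 between ages of a cell type and 0.807 to 0.87 between the cell types, and the first principal component, with 35.6% of the variance, separated beta from alpha cells.

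One difference between the libraries was not in the labels. Y-linked transcripts were present in 6 libraries and absent or nearly so in the other 3, all of them of P22. KDM5D (a histone demethylase on the Y chromosome) stood at 14.9 and 16.8 TPM in beta cells of P8, at 0, 0 and 11.6 TPM in beta cells of P22, at 17.1 and 17.3 TPM in alpha cells of P8 and at 0 and 23.5 TPM in alpha cells of P22. ZFY and USP9Y, the other two Y-linked transcripts read, split the libraries in the same way, with at most 0.275 TPM in those 3. Beta P22 replicates 1 and 2 and alpha P22 replicate 1 were the libraries without them, so that age and this property overlap: all 4 libraries of P8 had the transcripts and 2 of the 5 of P22 did. These transcripts were chosen after their values were seen. For the beta cell calls and for lists whose median moved most, the value within the 6 libraries that had them is given beside the result. Those 6 hold 1 library of P22 per cell type, beta replicate 3 and alpha replicate 2. Such a value therefore rests on 1 later library per cell type and describes that library.

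Other libraries stood apart in their content of other cells' RNA. Beta P22 replicate 2 held the most mesenchyme RNA, with 1226 TPM over the mesenchyme marker list against 281 to 402 TPM in the other 8 libraries, and ACTA2 (smooth muscle actin) at 332 TPM against 24.6 TPM or less. It also had the highest endothelial sum (1103 TPM) and the highest red blood cell sum (168 TPM, with HBB at 83.7 TPM). Beta P22 replicate 1 had the highest immune cell sum (518 TPM), with PTPRC, which encodes the leukocyte antigen CD45, at 21.3 TPM against 4.34 TPM or less elsewhere. Acinar markers, the digestive enzymes and their kin, summed to 20758 and 5869 TPM in beta cells of P8, 19345, 1905 and 48812 TPM in beta cells of P22, 10508 and 3655 TPM in alpha cells of P8, and 319 and 25115 TPM in alpha cells of P22, and no member was called. The acinar median over both cell types was 0.06 with all 9 libraries and 2.01 in the 6 libraries with Y-linked transcripts. The P22 libraries among those 6 were the ones with acinar sums of 48812 and 25115 TPM, the highest of their cell type.

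With cell type as a factor, none of the 15738 genes tested passed an adjusted p of 0.05 between P22 and P8 (0% called, limma with Benjamini-Hochberg adjustment). The smallest adjusted p was 0.176. At an unadjusted p under 0.05 there were 1294 genes (8.22%), 790 of them higher and 504 lower at P22. The median log2 difference over all genes was 0.04, with quartiles of -0.175 and 0.263, and the median standard error was 0.28. Both quartiles were smaller in size than that error, so differences of their size were not detectable for a typical gene with these 9 libraries. In beta cells 8 genes were called (0.0508%), all higher at P22, and 1513 had an unadjusted p under 0.05. In alpha cells none was called (0%, smallest adjusted p = 0.0622 by limma, 1017 genes at an unadjusted p under 0.05). No gene passed the test of a difference in change between beta and alpha cells (0% called, smallest adjusted p = 0.136 by limma, 1168 genes at an unadjusted p under 0.05).

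A second, descriptive reading is the number of genes for which the libraries of the ages do not overlap. Every P22 library lay above every P8 library of its cell type, in beta and in alpha cells alike, for 400 genes (2.54%), and below for 306 (1.94%). In beta cells alone 2736 genes (17.4%) lay above and 1118 (7.1%) below, and in alpha cells 1938 (12.3%) lay above and 3539 (22.5%) below. Counts of list members are set beside these percentages. When the libraries were rescaled by the median of ratios, the median change over all genes moved from 0.15 to 0.01 in beta cells and the median difference between the cell types from 0.26 to 0.03, so that small changes depend on the scaling. After that rescaling 2362 genes lay above and 2172 below in beta cells, and 2739 lay above and 2864 below in alpha cells, so the excess of lower genes in alpha cells was mostly gone.

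The 8 genes that rose in beta cells between P8 and P22 were SPP1, SPX, APOA1, CFTR, C3, SNTB1, LGALS9C and 1 identifier without a symbol. SPP1 (osteopontin, a secreted phosphoprotein also made by duct cells) stood at 5.01 and 8.52 TPM at P8 and at 158, 78.8 and 65.6 TPM at P22, a log2 difference of 3.65 ± 0.45 (SE, adjusted p = 0.0457, limma). CFTR, the chloride channel of duct epithelium that is mutated in cystic fibrosis, stood at 3.7 and 4.16 TPM against 105, 47.2 and 42 TPM, a log2 difference of 3.61 ± 0.46 (SE). All 3 libraries of P22 were far above both of P8 for these genes, and the lowest of the 3 was replicate 3 for each.

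In the alpha libraries the same genes were low at both ages. SPP1 was at 7.27 and 6.72 TPM at P8 and 6.21 and 15.5 TPM at P22, and CFTR at 6.41 and 11.1 TPM and at 3.85 and 8.55 TPM. The difference between the cell types did not pass the test for either gene.

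SPX (spexin, a secreted peptide) was listed at 0 in both beta libraries of P8 and in all 4 alpha libraries, and at 18.2, 9.47 and 8.88 TPM in the beta libraries of P22 (adjusted p = 0.0457, limma). It thus appeared in the 3 beta libraries of P22 and in no other of the 9. SPX therefore passed the filter on expression only through the group where it was high. The other groups, all at 0, added no spread to its error, so its p-value adds no support beyond the values themselves. C3, the central component of complement, stood at 7.5 and 4.67 TPM at P8 and at 113, 59.3 and 66.4 TPM at P22 in beta cells (log2 difference 3.48 ± 0.44, SE), against 2.38 to 7.58 TPM in the alpha libraries. APOA1, the main protein of high density lipoprotein, stood at 8.85 and 5.81 TPM and at 65.9, 137 and 46.6 TPM (3.21 ± 0.41, SE), with the alpha libraries between 19.5 and 27.4 TPM.

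SNTB1 (beta-1 syntrophin, an adaptor of the dystrophin complex) was at 3.81 and 4.54 TPM in beta cells of P8 and at 32.9, 27.5 and 18.6 TPM at P22, while the alpha libraries held 22.8 to 41.6 TPM at both ages. Its log2 difference in beta cells was 2.37 ± 0.31 (SE). LGALS9C, a galectin-9 gene whose human counterparts respond to interferon, stood at 0.435 and 2.98 TPM at P8 and at 200, 83.9 and 41.5 TPM at P22 (5.23 ± 0.70, SE), and at 18.2, 11.4, 57.7 and 17.4 TPM in the alpha libraries of P8 and then P22. The unnamed identifier (ENSSSCG00000031023.2) rose from 9.05 and 8.58 TPM to 42.1, 39.5 and 34.5 TPM in beta cells and lay between 5.25 and 6.91 TPM in alpha cells.

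**Figure D1:**
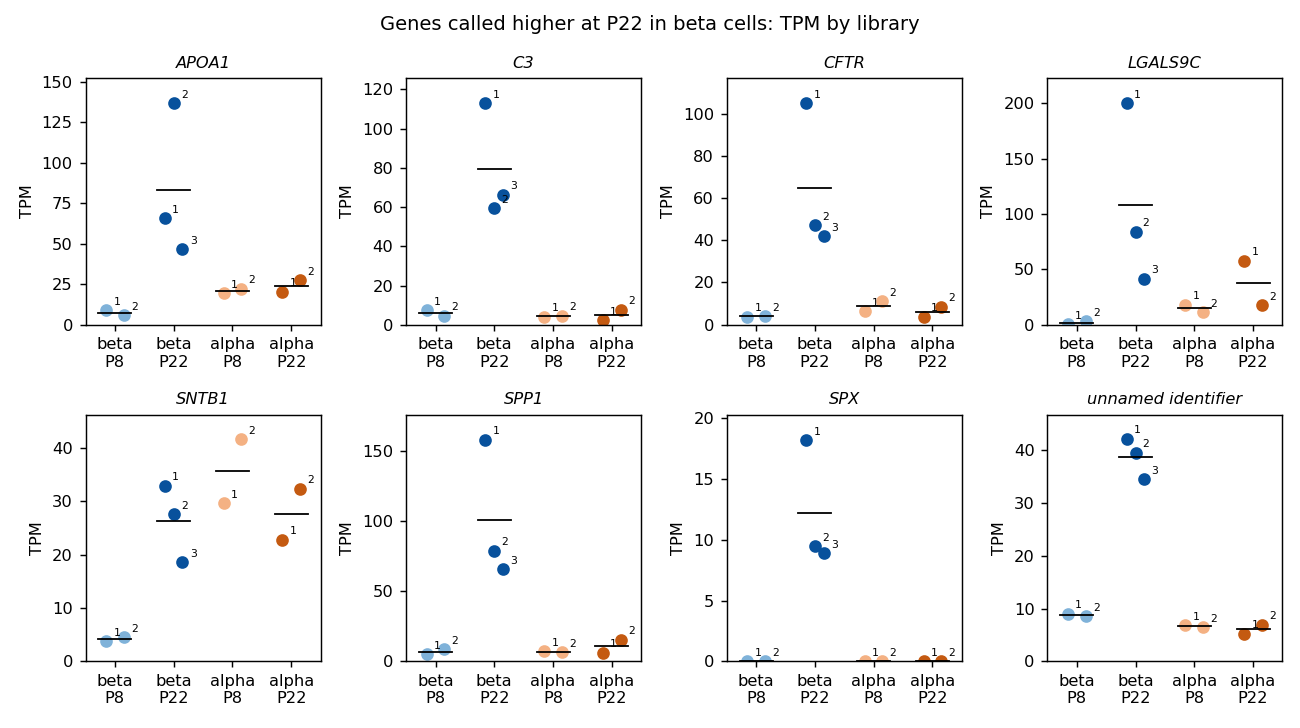
TPM (linear axis from 0) of the 8 genes called higher at P22 in beta cells, 1 panel per gene; each point is a library, labelled with its replicate number, and the short line is the group mean. In every panel the 3 beta libraries of P22 lie above both of P8, and the alpha libraries show no such step.

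These 8 calls lay close to the threshold and rested on the whole set of libraries. No gene was called in beta cells with a covariate for the Y-linked transcripts, in the 6 libraries that had those transcripts, when the consecutively titled libraries were treated as pairs, or without any 1 of beta P8 replicate 1, beta P8 replicate 2, beta P22 replicate 1, beta P22 replicate 2, alpha P8 replicate 1 or alpha P8 replicate 2. Without beta P22 replicate 3 there were 100 calls, and without alpha P22 replicate 1 or 2 there were 51 and 53; each of those sets contained all 8 genes. The sizes moved less than the calls. In the 6 libraries with Y-linked transcripts, where replicate 3 was the only beta library of P22, the log2 difference was 3.14 for SPP1, 3.13 for CFTR and 1.92 for SNTB1. ITPRID2 (a partner of the inositol trisphosphate receptor), at 9.33 and 8.67 TPM and at 31.7, 44.8 and 28.3 TPM in beta cells, lay just outside the threshold (adjusted p = 0.0574, limma).

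Several duct markers stood higher in beta cells of P22. The list itself holds SPP1 and CFTR of the 8 calls, and both are part of its counts, medians and sums. Of 20 duct markers tested, only these were called. Without overlap in beta cells 10 lay above and none below, against 17.4 and 7.1% of all genes. The median log2 difference in beta cells was 0.90, beside 0.15 over all genes. In the 6 libraries with Y-linked transcripts the median was 0.25 in beta cells and 0.53 in alpha cells, beside 0.18 in alpha cells over all 9. The list summed to 459 and 654 TPM in beta cells of P8 and to 1772, 1238 and 967 TPM in those of P22, and to 579 and 698 TPM and then 856 and 967 TPM in alpha cells. SLC4A4, a bicarbonate cotransporter that is also expressed by duct cells, was chosen after its values were seen: it stood at 27.9 and 31.5 TPM in beta cells of P8 and 462, 247 and 115 TPM in those of P22. KRT7 (a duct keratin) stood at 1.84 and 4.53 TPM and at 51.6, 34.3 and 19 TPM, and SCTR, the secretin receptor of ducts, at 1.26 and 3.86 TPM and at 57.9, 40.8 and 9.21 TPM. Neither was called. All beta libraries of P22 were above those of P8 in the duct sum, replicate 1 the most, and the part of duct cell RNA in the 8 calls was not tested.

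Interferon-induced genes had the largest median difference of the 35 gene lists over both cell types and in beta cells when all 9 libraries were used. In the 6 libraries with Y-linked transcripts acinar markers were above them, with medians of 2.01 over both cell types and 2.34 in beta cells. Of 58 tested, 56 had a positive log2 difference over both cell types and 37 an unadjusted p under 0.05, all of these higher at P22, and none was called. The median log2 difference was 1.29 over both cell types, 2.02 in beta cells and 0.30 in alpha cells, beside 0.04, 0.15 and -0.09 over all genes. In beta cells 51 of the 58 lay above without overlap, against the 17.4% of all genes, and none below. In alpha cells 10 lay above and 3 below, against 12.3 and 22.5% of all genes.

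The summed TPM of the list shows which libraries carried it. It was 856 and 1066 TPM in beta cells of P8 and 7531, 5162 and 2407 TPM in beta cells of P22, so the 3 later libraries were all higher but spread over a wide range. In alpha cells it was 1525 and 1695 TPM at P8 and 4886 and 1364 TPM at P22, so 1 library of P22 was far above and the other below both of P8. The 3 highest sums belonged to the 3 libraries without Y-linked transcripts. In the 6 libraries that had them the median log2 difference was 0.54 over both cell types, 1.28 in beta cells and -0.08 in alpha cells. The sums of immune cell markers were 518, 323 and 145 TPM in the same beta libraries of P22 and 129 and 154 TPM in those of P8, and their part in the result was not tested.

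USP18, the protease that removes ISG15 from proteins and limits the interferon receptor, stood at 0 and 3.79 TPM in beta cells of P8, 41.2, 49.5 and 18.2 TPM in those of P22, 2.57 and 0.497 TPM in alpha cells of P8 and 21 and 4.93 TPM in those of P22. It was higher at P22 without overlap in both cell types, with a log2 difference of 3.22 ± 0.61 (SE, adjusted p = 0.316, limma). IRF9, the DNA-binding part of the interferon-activated complex ISGF3, stood at 9.36 and 11.5 TPM, 91.9, 84 and 55.1 TPM, 12 and 26 TPM, and 91.7 and 18.7 TPM in the same order. Its alpha libraries overlapped, replicate 2 of P22 lying between those of P8.

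IFITM2 (a membrane protein that blocks viral entry, of a family whose copies are hard to separate by short reads) stood at 1.1 and 0.479 TPM in beta cells of P8 and 62.9, 39.5 and 22.1 TPM in those of P22, with a log2 difference in beta cells of 4.47 ± 0.68 (SE, adjusted p = 0.0658, limma). IFI44 stood at 0.995 and 1.21 TPM and at 47.2, 14.2 and 20.4 TPM in beta cells. EIF2AK2, the double-stranded RNA sensor PKR that halts translation, stood at 65.7 and 63.3 TPM and at 367, 223 and 196 TPM. In alpha cells of P22 these 3 genes were at 18.2, 13.8 and 126 TPM in replicate 1 and at 2.46, 3.03 and 55.8 TPM in replicate 2, against 1.96 and 3.31, 1.26 and 3.85, and 48.2 and 60.5 TPM at P8.

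A further 3 antiviral genes were picked after their values were seen. MX1, a GTPase that traps viral nucleocapsids, stood at 26 and 32.6 TPM in beta cells of P8, 972, 304 and 264 TPM in those of P22, 48.4 and 61.6 TPM in alpha cells of P8 and 178 and 57.7 TPM in those of P22. IFI6 reached 1658 and 1896 TPM in beta P22 replicates 1 and 2 and 2203 TPM in alpha P22 replicate 1, against 174 and 27.3 TPM in the other two libraries of that age and 10.9 to 116 TPM at P8. ISG15, a ubiquitin-like modifier, stood at 0.0486 and 0.126 TPM in beta cells of P8 and at 124, 33.6 and 15.1 TPM in those of P22. For these genes beta P22 replicate 3 was above beta cells of P8, while alpha P22 replicate 2 lay within or below the range of alpha cells of P8.

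When all 37 libraries of the series entered the fit, so that the spread was estimated over all groups, 28 genes (0.178%) were called over both cell types and 89 (0.566%) in beta cells. Of the interferon-induced genes 9 and 21 were then among them, all higher at P22. MX1 had a log2 difference of 2.36 ± 0.31 (SE, adjusted p = 0.000301, limma) over both cell types in that fit. Its estimate of spread came largely from fetal libraries, where the list summed to 682 to 1444 TPM. In beta and alpha cells of P22 the list ran from 1364 to 7531 TPM. The errors and p-values of that fit can therefore understate the spread of these genes at P22.

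**Figure D2:**
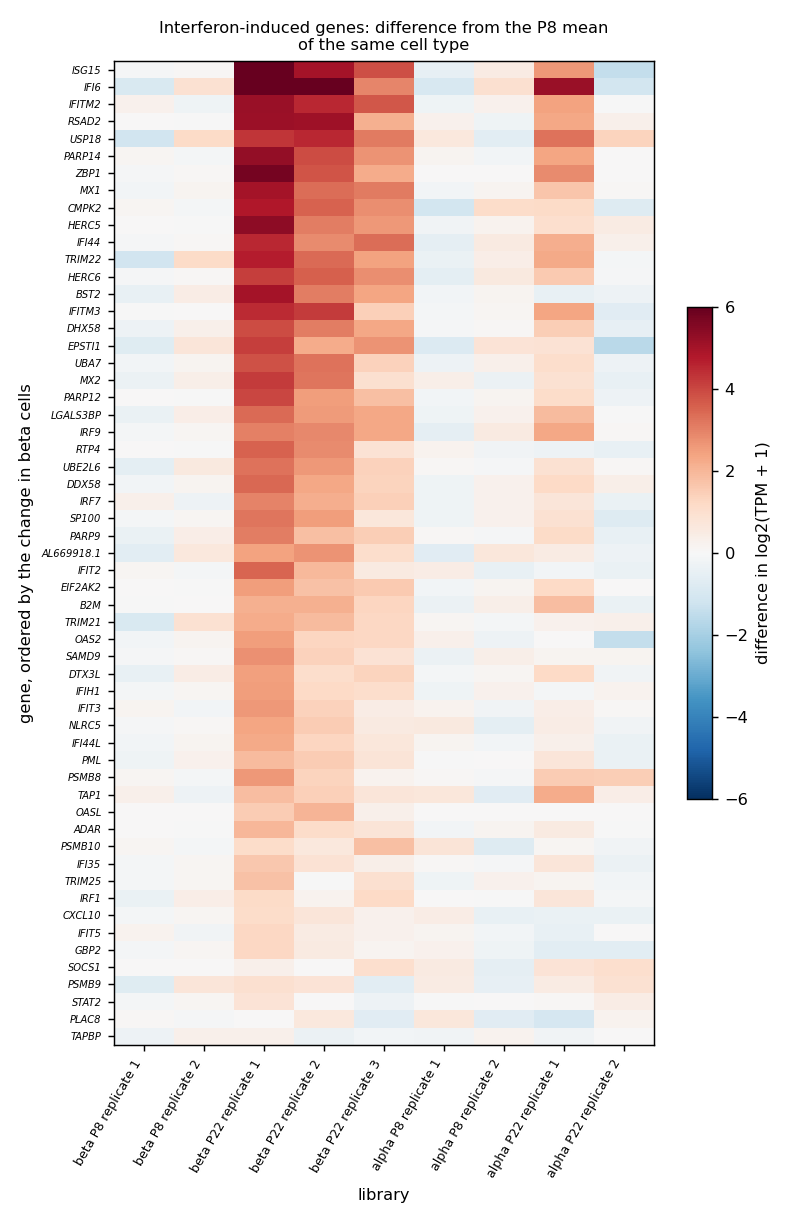
Difference in log2(TPM + 1) of the interferon-induced genes tested, less 1 that is not drawn (rows), in each of the 9 libraries (columns) from the P8 mean of the same cell type; red is higher and blue lower than that mean, and AL669918.1 is the name the table gives to TAP2. Beta P22 replicates 1 and 2 are red over most rows, beta P22 replicate 3 and alpha P22 replicate 1 less so, and alpha P22 replicate 2 resembles the libraries of P8.

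Genes of antigen presentation, which shows peptides to T cells and which interferon also raises, were higher in beta cells too. Of 17 tested, 14 had a positive difference, 6 had an unadjusted p under 0.05 and none was called, with medians of 0.86 over both cell types, 1.34 in beta cells and 0.33 in alpha cells. Of the 17, 11 lay above without overlap in beta cells, against 17.4% of all genes. These medians were 0.32, 0.64 and 0 in the 6 libraries with Y-linked transcripts. B2M, the light chain of class I molecules, stood at 151 and 152 TPM in beta cells of P8, 676, 668 and 372 TPM in those of P22, 118 and 190 TPM in alpha cells of P8 and 542 and 112 TPM in those of P22. CD74, the class II invariant chain of antigen presenting cells, stood at 6.89 and 9.44 TPM, 133, 107 and 19.4 TPM, 17.4 and 9.88 TPM, and 29.2 and 25.4 TPM. Among 25 genes of interferon signalling (receptors, JAK and STAT proteins, regulators), 5 had an unadjusted p under 0.05, none was called, and the median in beta cells was 0.27.

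Cytosolic ribosomal proteins, the protein parts of the ribosome, differed in the same direction in both cell types. Of 59 tested, 58 had a positive log2 difference, 36 had an unadjusted p under 0.05 higher and 1 lower, and none was called. For 28 of the 59 all libraries of P22 lay above those of P8 in both cell types, against 2.54% of all genes. The median log2 difference was 0.45 over both cell types, 0.35 in beta cells and 0.57 in alpha cells. Their summed share was 1.67 and 1.82% of TPM in beta cells of P8 and 2.32, 2.08 and 2.25% in those of P22, and 2.04 and 1.79% and then 3.1 and 2.64% in alpha cells.

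No library of P22 fell into the P8 range of that share in either cell type. The median was 0.41 in the 6 libraries with Y-linked transcripts, so the difference was about as large there. After median-of-ratios scaling the median was 0.40 over both cell types and 0.19 in beta cells. Then 14 genes of the list lay above without overlap in both, against 2.75% of all genes.

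RPS27A, a ribosomal protein made as a fusion with ubiquitin, stood at 534 and 525 TPM in beta cells of P8, 926, 1038 and 892 TPM in those of P22, 571 and 607 TPM in alpha cells of P8 and 1162 and 769 TPM in those of P22 (log2 difference 0.77 ± 0.16, SE). RPL10 stood at 190 and 232 TPM, 316, 297 and 303 TPM, 149 and 186 TPM, and 267 and 322 TPM in the same order. RACK1, a scaffold protein of the small ribosomal subunit, had an even step, from 109 and 122 TPM to 199, 208 and 219 TPM in beta cells and from 109 and 116 TPM to 230 and 180 TPM in alpha cells (0.85 ± 0.13, SE, adjusted p = 0.219, limma). Many ribosomal protein genes have processed copies in the genome, so the split of reads among them is uncertain, and RPLP0 and RPL37A share their symbols with other identifiers.

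Mitochondrially encoded genes, the 13 respiratory chain proteins made inside mitochondria, stood lower at P22. All 13 had a negative log2 difference (median -0.54 over both cell types, -0.35 in beta cells and -0.83 in alpha cells), 5 had an unadjusted p under 0.05, and none was called. In alpha cells all 13 lay below without overlap, against 22.5% of all genes, and in beta cells 3 did, against 7.1%. Their share of TPM was 15.9 and 12.8% in alpha cells of P8 and 7.98 and 8.95% in those of P22, and 8.73 and 7.23% and then 7.22, 8.23 and 5.09% in beta cells. The alpha libraries of the ages were thus separate and the beta libraries overlapped. Their medians in the 6 libraries with Y-linked transcripts were -0.71 in beta cells and -0.69 in alpha cells. MT-CYB, the cytochrome b of complex III, stood at 6712 and 5278 TPM in alpha cells of P8 and 2387 and 3335 TPM in those of P22.

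For the 56 nuclear genes of mitochondrial respiration the median was 0.06 over both cell types, -0.08 in alpha cells and 0.16 in beta cells, and none was called. COX4I1, a subunit of complex IV, stood at 106 and 154 TPM and at 192, 169 and 167 TPM in beta cells and at 164 and 160 TPM and at 215 and 270 TPM in alpha cells. COX5A, another subunit of that complex, stood at 54 and 53.1 TPM in alpha cells of P8 and at 25.4 and 25.6 TPM in those of P22.

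**Figure D3:**
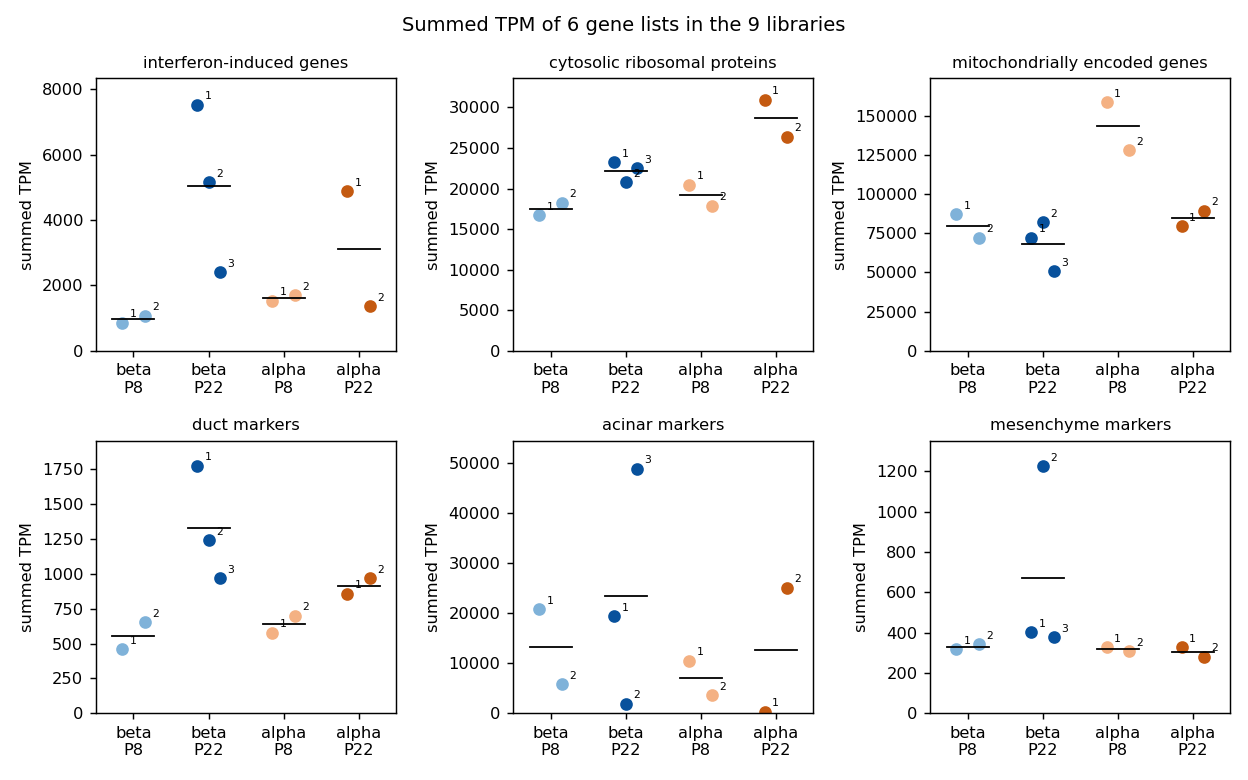
Summed TPM (linear axes from 0) of 6 gene lists, 1 panel per list; each point is a library, labelled with its replicate number, and the short line is the group mean. Ribosomal proteins are higher in every library of P22 than in any of P8 of the same cell type, mitochondrially encoded genes are lower in alpha cells of P22, interferon-induced genes spread widely at P22, the mesenchyme sum is high in beta P22 replicate 2, and the acinar sum varies widely within each group.

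Among single genes, the smallest p-values over both cell types belonged to GPX1 and DDAH2, both higher at P22 and neither called (adjusted p = 0.176 for both, limma). GPX1, the glutathione peroxidase that removes hydrogen peroxide, stood at 0.502 and 0.323 TPM in beta cells of P8, 24.9, 15.4 and 10.8 TPM in those of P22, 1.88 and 0 TPM in alpha cells of P8 and 10.9 and 7.07 TPM in those of P22. DDAH2, which degrades the nitric oxide synthase inhibitor dimethylarginine, stood at 2.56 and 2.07 TPM, 12.7, 16 and 8.46 TPM, 0.609 and 2.06 TPM, and 11.8 and 10.5 TPM. The ages did not overlap in either cell type for these genes, and the log2 differences were 3.11 (95% interval 2.20 to 4.03) and 2.19 (1.51 to 2.87). The genes were picked for the smallest p of the 15738 tested, and the intervals are not adjusted for that choice. That they exclude 0 therefore adds no support. GPX1 also passed the filter on expression only through its libraries of P22.

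EYA2, a transcriptional co-activator with phosphatase activity, stood at 45.3 and 73.2 TPM and at 200, 105 and 131 TPM in beta cells and at 109 and 99.8 TPM and at 251 and 391 TPM in alpha cells. TFRC, the transferrin receptor that takes up iron, stood at 9.96 and 11.1 TPM and at 36.2, 26.6 and 27.6 TPM in beta cells and at 15.9 and 14.9 TPM and at 23.5 and 22.7 TPM in alpha cells. CAMK2D, a calcium and calmodulin dependent kinase, stood at 15.3 and 16.9 TPM and at 80.4, 49.2 and 35.1 TPM in beta cells and at 32 and 22.5 TPM and at 74.3 and 43.1 TPM in alpha cells. All 3 were higher in each library of P22 than in any of P8 of the same cell type, with log2 differences of 1.41 ± 0.23, 1.03 ± 0.22 and 1.37 ± 0.27 (SE). FXYD2 (a regulator of the sodium pump), RAP1GAP, S100A13, PSD3, FBXO22 and PCDHB4 completed the higher genes with a symbol, with log2 differences from 0.67 (FBXO22) to 3.02 (S100A13), each at an adjusted p of 0.316 by limma.

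On the lower side MMP11, a secreted matrix protease of the stromelysin family, stood at 86.3 and 80.4 TPM in beta cells of P8, 11.1, 11.9 and 31.6 TPM in those of P22, 175 and 185 TPM in alpha cells of P8 and 52.9 and 104 TPM in those of P22 (log2 difference -1.83 ± 0.34, SE, adjusted p = 0.316, limma). LIN28A, an RNA-binding protein of fetal and stem cells that blocks the processing of let-7 microRNAs, stood at 26.7 and 35.6 TPM, 19.4, 11.6 and 10.9 TPM, 43.7 and 41.6 TPM, and 19.1 and 23.4 TPM, and its symbol is shared by more than 1 identifier. VGF, a granule protein and precursor of secreted peptides, stood at 112 and 123 TPM, 68.6, 77.3 and 92.6 TPM, 216 and 213 TPM, and 71.6 and 124 TPM. Each was lower in all libraries of P22 of both cell types.

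E2F3, an activator of S phase genes, stood at 8.72 and 16 TPM and at 4.11, 3.54 and 4.6 TPM in beta cells and at 7.93 and 8.98 TPM and at 4.46 and 2.77 TPM in alpha cells. ZFP36L2, which destabilises mRNAs with AU-rich elements, stood at 75.5 and 86.6 TPM and at 43.2, 59.5 and 41.1 TPM in beta cells and at 26 and 30.6 TPM and at 15.6 and 19.3 TPM in alpha cells. VAMP1, a vesicle SNARE, was listed at 0 in both alpha libraries of P22 and stood at 15.6 and 28 TPM in those of P8. The other genes of this group, MFAP5, BTBD17, MYO3A, EPHB1, SERP2, CMTM7, MYO10, LRP3 and MAMLD1, had log2 differences from -0.65 (MYO10) to -1.64 (EPHB1). Of 16 fetal growth genes tested, 3 had a positive difference, 2 an unadjusted p under 0.05 and none was called, with a median of -0.24, and IGF2 (insulin-like growth factor 2) stood at 981 and 1404 TPM in beta cells of P8 and at 770, 889 and 525 TPM in those of P22.

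The hormone genes themselves were not called. INS in beta cells had a log2 difference of -0.26 ± 1.11 (SE), and GCG in alpha cells one of -0.10 ± 0.89 (SE). Beta and alpha libraries share 1 estimate of spread per gene in that fit, so these errors include trace hormone in the other cell type. INS ran from 0.0243 to 0.391% of TPM in alpha libraries, and GCG from 0.000749 to 0.00895% in beta libraries. In its own cell type INS ran from 23.9 to 35.8% and GCG from 9 to 10.1%, a spread that these errors do not measure alone. PYY (peptide YY) stood at 24.9 and 54.1 TPM in alpha cells of P8 and 17 and 3.87 TPM in those of P22, and PPY (pancreatic polypeptide) at 2438 and 1081 TPM and at 593 and 554 TPM, both lower without overlap. SST (somatostatin) was at or below 84.8 TPM in all 9 libraries. Of 16 islet hormone and granule genes tested, 7 lay below without overlap in beta cells and none above, against 7.1% below for all genes, with a median of -0.42 in beta cells and 0.02 in alpha cells.

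Several beta cell genes stood lower in beta cells of P22. Of 23 beta cell markers 8 lay below without overlap and none above, against 7.1 and 17.4% of all genes. None of the markers was called, and their median was -0.26 (-0.42 after median-of-ratios scaling). G6PC2, the glucose-6-phosphatase subunit of beta cells that opposes glucokinase, stood at 1082 and 1224 TPM at P8 and at 319, 290 and 481 TPM at P22. UCN3 (urocortin 3, a peptide of mature beta cells), taken from the list after its values were seen, stood between 383 and 515 TPM at P22 and between 616 and 639 TPM at P8. MAFA, the activator of insulin transcription in mature beta cells, overlapped in beta cells at 48.4 and 22.1 TPM against 62.4, 47.4 and 46 TPM, and in alpha cells was listed at 0 in both libraries of P8 and stood at 1.69 and 4.41 TPM in those of P22.

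**Figure D4:**
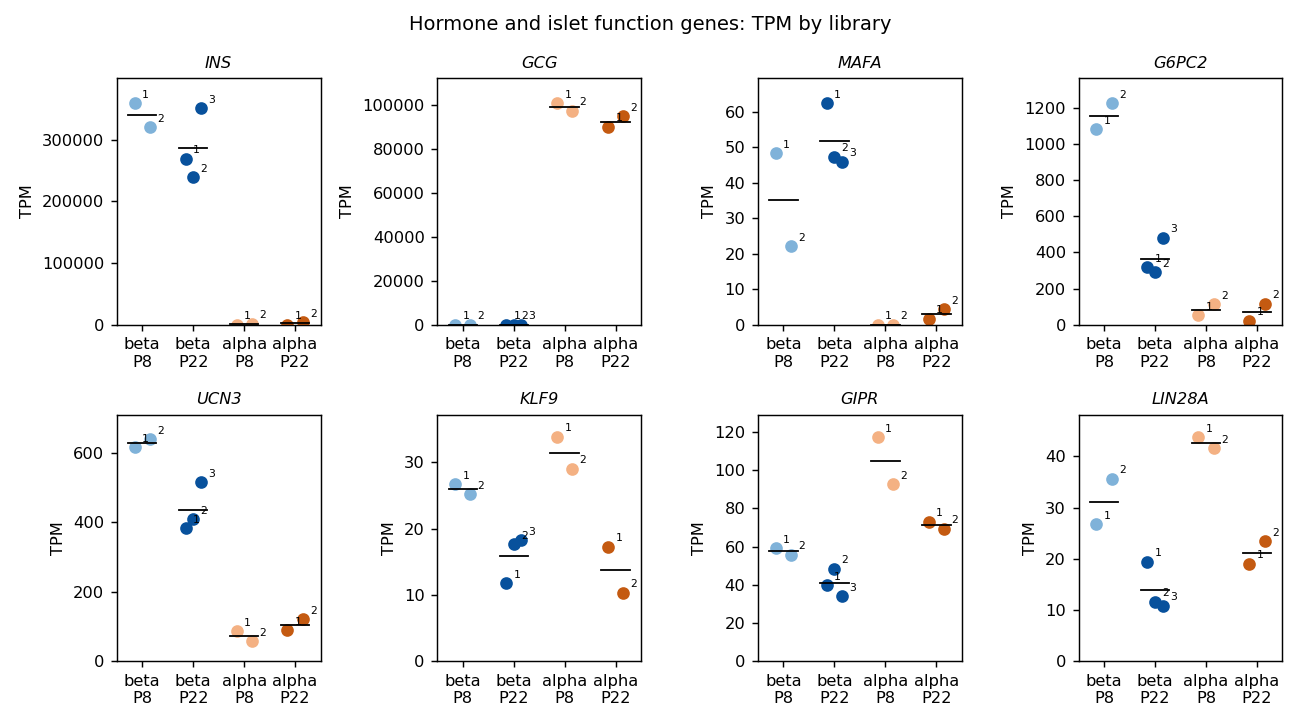
TPM (linear axes from 0) of 8 hormone, transcription factor, enzyme and receptor genes, 1 panel per gene; each point is a library, labelled with its replicate number, and the short line is the group mean. G6PC2 and UCN3 are lower in the beta libraries of P22, KLF9, LIN28A and GIPR are lower at P22 in both cell types, and the beta libraries overlap for INS and MAFA.

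Among islet transcription factors 25 of 48 had a positive difference, 3 had an unadjusted p under 0.05 higher and 4 lower, none was called and the median was 0.01. PDX1 stood at 112 and 169 TPM in beta cells of P8 and at 130, 138 and 94 TPM in those of P22, and NKX6-1 at 130 and 185 TPM and at 174, 212 and 94.6 TPM. The ages overlapped for both. KLF9, a target of thyroid hormone and glucocorticoid, was lower in both cell types, at 26.7 and 25.2 TPM and at 11.7, 17.7 and 18.3 TPM in beta cells and at 33.8 and 29 TPM and at 17.3 and 10.3 TPM in alpha cells (log2 difference -0.91 ± 0.22, SE, adjusted p = 0.316, limma). THRB, the beta thyroid hormone receptor, stood at 5.42 and 5.38 TPM in alpha cells of P8 and 0.986 and 0.508 TPM in those of P22, and overlapped in beta cells.

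NEUROG3, the factor that starts endocrine differentiation, stood at 7.47 and 9.36 TPM in beta cells of P8 and at 32.8, 25 and 7.52 TPM in those of P22, with overlap. ONECUT1, a factor of duct and progenitor cells, stood at 10.2 and 6.14 TPM and at 51.7, 29 and 22.7 TPM in beta cells, and SOX9 at 10 and 21.4 TPM and at 59.8, 32.3 and 16.9 TPM. Replicate 1 of P22 was the highest for these 3 genes, as it was for the duct marker sum. Alpha cell markers had a median of -0.12 (none of 23 called) and delta cell markers one of 0.22 (none of 12 called), which was -0.01 in the 6 libraries with Y-linked transcripts.

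Genes of excitability and secretion held no call. The 37 ion channel genes tested had a median of 0.01, and 3 lay below without overlap in both cell types, against 1.94% of all genes, and none above. After median-of-ratios scaling 1 lay below in both, against 2.84% of all genes. The channel genes below in beta cells went from 6 to 13, while the share of all genes below there went from 7.1 to 13.8%. Of 41 genes of the secretion machinery 10 lay below and 2 above without overlap in beta cells, against 7.1 and 17.4% of all genes. In alpha cells 12 of them lay above and 3 below, against 12.3 and 22.5%. STX1A, the plasma membrane SNARE of exocytosis, was at 65.8 and 57 TPM in beta cells of P8 and 49.8, 26 and 36.6 TPM in those of P22.

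Genes with the smallest p-values on the lower side in beta cells included ROBO2, a receptor of the guidance cue SLIT, GADD45G, C2orf76, ARHGAP24 and SLC3A2. ROBO2 stood at 120 and 147 TPM at P8 and at 48.7, 61 and 55.2 TPM at P22 in beta cells, and at 109 and 150 TPM and then 162 and 140 TPM in alpha cells. SLC3A2, the heavy chain of several amino acid transporters, stood at 136 and 191 TPM and at 68.7, 74.2 and 92.3 TPM in beta cells, and at 482 and 531 TPM and at 625 and 746 TPM in alpha cells. These genes were lower at P22 in beta cells and not in alpha cells, and the difference of their changes did not pass the test (log2 -1.50 ± 0.31 and -1.48 ± 0.32, SE, adjusted p = 0.427 and 0.437, limma).

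**Figure D5:**
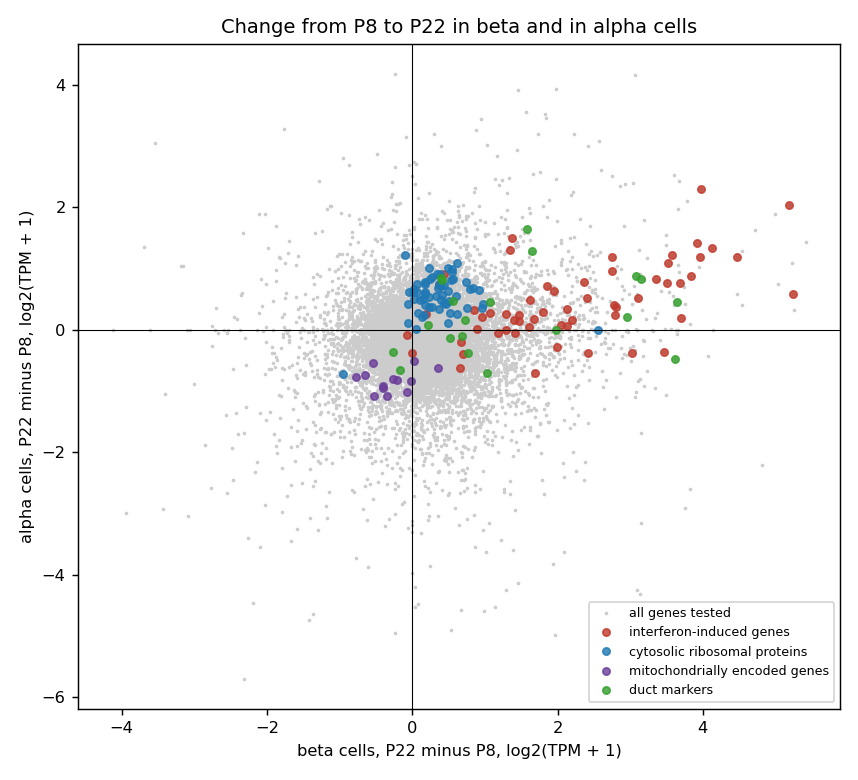
Difference between P22 and P8 in log2(TPM + 1) in beta cells (x axis) and in alpha cells (y axis) for the 15738 genes tested (grey) and 4 lists (colours); each point is a gene. Interferon-induced genes extend to the right with a median of 2.02 in beta cells and 0.30 in alpha cells. Ribosomal protein genes have medians above 0 on both axes (0.35 in beta and 0.57 in alpha cells), though not every one lies above 0. Mitochondrially encoded genes lie below 0 in alpha cells. In beta cells 10 of the 20 duct markers lie above without overlap, against 17.4% of all genes.

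In alpha cells cell division genes stood lower at P22. Of 52 tested, 30 lay below without overlap and 3 above, against 22.5 and 12.3% of all genes, none was called, and the median was -0.70 in alpha cells and 0.03 in beta cells. The list summed to 732 and 793 TPM in alpha cells of P8 and 563 and 554 TPM in those of P22, and to 613 and 621 TPM and then 658, 545 and 747 TPM in beta cells. CENPA, the histone variant of centromeres, stood at 4.74 and 6.87 TPM in alpha cells of P8 and 0.944 and 0.142 TPM in those of P22, and MCM6, a subunit of the replicative helicase, at 33.1 and 37.6 TPM and at 21.1 and 19.4 TPM. EZH2, the histone methyltransferase that represses CDKN2A, stood at 16.2 and 15.9 TPM and at 2.94 and 6.06 TPM. These genes had overlapping values in beta cells. The list's median was -0.48 in alpha cells and 0.47 in beta cells in the 6 libraries with Y-linked transcripts, and -0.42 in alpha cells after quantile normalization. Inhibitors of the cycle and cyclin D kinases (20 tested) had a median of 0.03 in alpha cells and 0.06 in beta cells, and none was called.

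Among other genes in alpha cells, GAD2, the enzyme that makes GABA, stood at 14.7 and 10.5 TPM at P8 and 3.36 and 3.99 TPM at P22, and at 118 to 168 TPM in beta cells of both ages. PUDP stood at 96.2 and 106 TPM and at 33.2 and 15.3 TPM, with a symbol shared by several identifiers. HIST1H2AG, a histone H2A gene, stood at 41.6 and 35.8 TPM and at 1.66 and 0 TPM (log2 difference -4.60 ± 0.61, SE, adjusted p = 0.111, limma), and at 11 and 21.2 TPM and at 23.1, 20.5 and 63.1 TPM in beta cells. PHLDA3, a p53 target that restrains AKT, was listed at 0 in both alpha libraries of P22 and stood at 17.6 and 35.4 TPM in those of P8, while beta cells held 0 and 4.15 TPM at P8 and 30.4, 36.9 and 11.1 TPM at P22. On the higher side SCARA5, a ferritin receptor, stood at 0.46 and 1.81 TPM at P8 and at 17.3 and 13.3 TPM at P22, and FHIT was listed at 0 at P8 and stood at 15 and 6.47 TPM at P22. ABRACL, FAM71E1 and ROR1 were also lower and COA4, RPL26 and TOR1B also higher in both alpha libraries of P22.

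The next genes were named for the smallest p-values of a difference in change between the cell types, not for its size. CFTR, SNTB1, SPX, C3, HIST1H2AG, PHLDA3, KCNE3 and PTN had the more positive change in beta cells. COA4, ROBO2, MFAP2, SLC3A2, EEF1A2, PCSK1N, ARL9 and C2orf76 had the more positive change in alpha cells. None of them was called for this difference. KCNE3, a potassium channel subunit of epithelia, stood at 8.74 and 8.68 TPM and at 167, 77.6 and 71.5 TPM in beta cells and at 15.9 and 19.4 TPM and at 3.71 and 18.6 TPM in alpha cells. PTN (pleiotrophin, a growth factor) stood at 64.5 and 93.6 TPM and at 220, 290 and 236 TPM in beta cells and at 11 and 8.33 TPM and at 8.25 and 4.56 TPM in alpha cells. PCSK1N (proSAAS, an inhibitor of prohormone convertase 1) was lower in beta cells of P22, at 377 and 428 TPM and then 259, 265 and 255 TPM, and higher in alpha cells of P22, at 277 and 297 TPM and then 389 and 469 TPM, without overlap in either.

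Dissociation and early response genes, which cells raise within minutes of handling or stimulation, differed by library. Of 32 tested, 25 lay above without overlap in beta cells, against 17.4% of all genes, with a median of 1.35. The median in alpha cells was -0.26, and none was called. They summed to 3298 and 3031 TPM in beta cells of P8, 5700, 6005 and 7233 TPM in those of P22, 6048 and 6675 TPM in alpha cells of P8, and 12907 and 1568 TPM in alpha cells of P22. ATF3 stood at 6.64 and 5.4 TPM and at 74.7, 110 and 70.1 TPM in beta cells, and at 17.1 and 35.7 TPM and at 105 and 12.4 TPM in alpha cells. The alpha library of P22 that was high for these genes was also the one that was high for interferon-induced genes and lacked Y-linked transcripts. In the 6 libraries with those transcripts the median was 1.20 in beta cells and -1.44 in alpha cells.

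Lists of metabolism held few differences. Of 34 genes of glucose sensing and glycolysis 5 had an unadjusted p under 0.05 higher and 1 lower, none was called, and the median was 0.20. Their sum went the other way in beta cells, from 3009 and 3314 TPM at P8 to 2946, 2699 and 2420 TPM at P22. In alpha cells it went from 2399 and 2352 TPM to 2859 and 2536 TPM. After median-of-ratios scaling 7 lay above and 8 below without overlap in beta cells, against 15 and 13.8% of all genes. HK1, a hexokinase that mature beta cells repress, stood at 0.639 and 0 TPM and at 20.3, 9.71 and 5.86 TPM in beta cells, and PFKFB2, a regulator of glycolytic flux, at 300 and 308 TPM and at 585, 445 and 349 TPM. Of 20 genes normally low in mature beta cells, 8 lay above without overlap in beta cells and none below. The shares of all genes were 17.4 and 7.1%. The list's median in beta cells was 0.67, and none of it was called. Fatty acid metabolism (28 tested, median 0.00) included ACLY, which supplies cytosolic acetyl-CoA, at 680 and 693 TPM and at 421, 439 and 478 TPM in beta cells and at 230 and 202 TPM and at 180 and 147 TPM in alpha cells, and ACADM, an enzyme of beta oxidation, at 19 and 13.4 TPM and at 30.7, 39 and 25.1 TPM in beta cells. Cholesterol synthesis and uptake (25 tested, median 0.06) had no gene at an unadjusted p under 0.05.

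Some clock genes stood lower, and glucocorticoid-induced genes differed by cell type. DBP, an output gene of the circadian clock, stood at 20.3 and 31.1 TPM and at 7.78, 7.1 and 11 TPM in beta cells and at 18.9 and 16.9 TPM and at 14.6 and 11.9 TPM in alpha cells (log2 difference -0.98 ± 0.27, SE, adjusted p = 0.386, limma), and PER2 was also lower without overlap in both. PER3 was lower without overlap in beta cells, and its alpha libraries overlapped. The hour of collection is not in the labels. Over the 19 clock genes the median was -0.03, with -0.19 in beta cells and -0.01 in alpha cells. In beta cells 7 lay below and 2 above without overlap, against 7.1 and 17.4% of all genes. In alpha cells 5 lay below and 4 above, against 22.5 and 12.3%. In both cell types 3 lay below, against 1.94% of all genes, and none above. Glucocorticoid-induced genes summed to 641 and 528 TPM in beta cells of P8 and 881, 898 and 1147 TPM in those of P22, and to 1178 and 861 TPM and then 1218 and 535 TPM in alpha cells. The list's median was 0.63 in beta cells. Of its 17 genes 7 lay above and 2 below without overlap there, against 17.4 and 7.1% of all genes. In alpha cells the median was -0.54, and 1 of the 17 lay above and 7 below, against 12.3 and 22.5%. Over both cell types 1 had an unadjusted p under 0.05 higher and 3 lower, with KLF9 lower without overlap in both cell types and ERRFI1 in alpha cells. A metallothionein, MT2A, stood at 21.3 and 13.6 TPM and at 85.9, 69.5 and 118 TPM in beta cells. None of either list was called.

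Among 46 hormone and growth factor receptors none was called and the median was 0.11. GIPR, the receptor of the incretin GIP, stood at 59.1 and 55.9 TPM and at 39.9, 48.6 and 34.2 TPM in beta cells and at 117 and 92.8 TPM and at 73 and 69.5 TPM in alpha cells, lower without overlap in both. Notch, Wnt, Hedgehog and BMP pathway genes (35 tested) had 7 at an unadjusted p under 0.05, all higher, and none called, with a median of 0.37 in beta cells. NOTCH1 stood at 1.7 and 0.692 TPM and at 15.4, 12.6 and 4.43 TPM in beta cells and at 2.9 and 4.23 TPM and at 6.75 and 9.53 TPM in alpha cells, and its target HES1 at 3.07 and 1.84 TPM and at 19.9, 7.99 and 9.65 TPM in beta cells. These genes are also expressed by duct and endothelial cells, and that part was not tested. The duct marker sum was higher in all 3 beta libraries of P22, and the endothelial sum in replicates 1 and 2 only. The median in beta cells was 0.15 in the 6 libraries with Y-linked transcripts and 0.22 after median-of-ratios scaling.

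Among stress lists the unfolded protein response had a median of 0.01 (27 tested) and ATF4 and amino acid stress genes one of -0.03 (22 tested), with none called. The first was 0.31 in the 6 libraries with Y-linked transcripts. CEBPB, a transcription factor of inflammation and stress, stood at 0 and 0.334 TPM and at 10.3, 17.7 and 3.75 TPM in beta cells and at 0.716 and 0.912 TPM and at 5.4 and 2.09 TPM in alpha cells. Complement and acute phase genes (21 tested) had a median of 0.81 in beta cells, where C3 was called. There 10 of the list lay above without overlap, against 17.4% of all genes. That median was 0.40 in the 6 libraries with Y-linked transcripts and 0.46 after quantile normalization. SERPING1, the inhibitor of the first complement component, stood at 6.28 and 2.42 TPM and at 35.3, 18.3 and 6.09 TPM in beta cells.

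Lists of other cell types had mostly positive medians in beta cells, and no member of the following was called. Mesenchyme markers (21 tested) had a median of 0.84 in beta cells and -0.37 in alpha cells, endothelial markers (16 tested) 1.26 and -0.02, immune cell markers (28 tested) 0.58 and -0.07, red blood cell markers (6 tested) 0.63 and 0.02, and neural and Schwann cell markers (12 tested) 0.01 and -0.07. In the 6 libraries with Y-linked transcripts the medians in beta cells were 0.40 for mesenchyme, 0.70 for endothelial, -0.04 for immune, 0.00 for red blood cell and -0.12 for neural markers. COL1A1 stood at 0.0422 and 0.108 TPM in beta cells of P8 and 5.48, 23.6 and 3.17 TPM in those of P22, CDH5 (an endothelial cadherin) at 0 in both and 1.93, 25.6 and 2.38 TPM, and HBB at 0 in both and 0.231, 83.7 and 0 TPM. The sums of endothelial markers were 677 and 790 TPM in beta cells of P8 and 884, 1103 and 712 TPM in those of P22, and those of mesenchyme markers 318 and 344 TPM and 402, 1226 and 378 TPM. In beta cells of P22 these markers were thus highest in replicate 2, the duct and immune sums in replicate 1, and the acinar sum in replicate 3.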

How the data were processed

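RNA of sorted pig islet cells was measured by RNA sequencing (total RNA, stranded kit, paired reads on a NextSeq, per the labels' protocols). The values are the TPM deposited by the authors for 22630 genes, quantified with Salmon 0.11.3 per the submitters' processing notes, with build and annotation not given in the sources used here. Every column summed to 1e+06, so depth and counting error are unknown. Symbols are those of the table. For 4006 identifiers without one, a name list was searched, and of several identifiers with 1 symbol the most abundant was taken.

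Genes with at least 1 TPM in at least 2 of the 9 libraries (15738) were fitted as log2(TPM + 1) with limma 3.58.1 in R 4.3.3, eBayes(trend=TRUE), and p-values were adjusted by Benjamini-Hochberg over all of them, with a call below 0.05. Log2 differences are on the log2(TPM + 1) scale, which understates those of low genes. The comparison over both cell types had cell type and age as additive terms (6 residual degrees of freedom). Beta, alpha and their difference came from a fit with 1 mean per group (5 residual degrees of freedom). All groups share 1 estimate of spread per gene in that fit, so an error in 1 cell type includes the spread in the other. Errors beside log2 differences are standard errors of the moderated fit. The procedure was tested on simulated data.

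Replicate numbers are in accession order. Libraries with consecutive title numbers might share an animal. The deviations of such pairs from their group means had correlations of 0.11 at P8 and 0.15 at P22. In a group of 2 libraries these deviations mirror each other, so both pairs of P8 give the same value. For that reason beta P22 replicate 2 and alpha P22 replicate 2, not consecutive in title, gave -0.15. These values cannot decide whether paired libraries share an animal. The fit with those pairs as a block is given where it changes a count.

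Named genes were the 15 with the smallest p each way over both cell types, 8 each way for beta, alpha and the difference (called ones first, mean of at least 10 TPM at the higher age), up to 5 per list, the hormones and the islet transcription factors; others are said to be chosen after their values were seen. The members and the 35 lists were chosen with earlier results of these data known. A planned permutation test of summed lists is not reported, and sequences were not used here. Results for a few genes are not reported here; they remain in the counts and medians of their lists.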

Additional observations from a re-analysis of the deposited data

How the results depend on the processing

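The count over both cell types (0) became 28 (24 higher, 4 lower) with all 37 libraries in the fit and stayed 0 under the other settings, except when single libraries were left out, where it ran from 0 to 26 (26 without alpha P22 replicate 2, 1 without alpha P8 replicate 1). The count in beta cells (8 higher, 0 lower) was 0 with a pseudocount of 0.1, 0 with the replicate block of consecutive titles, 0 with only the beta libraries, 0 with a Y-linked covariate and 0 in the 6 libraries with Y-linked transcripts; it was 5 without a filter, 2 without the trend, 14 (11 higher, 3 lower) with quantile normalization, 47 with an acinar covariate, 78 with array weights and 89 with 37 libraries, and ran from 0 to 100 when single libraries were left out. It was 12 with median-of-ratios scaling (10 higher, 2 lower) and 12 without hormone and mitochondrial genes (9 higher, 3 lower). The count in alpha cells (0) was 10 without a filter, 1 without the trend, 2 with 37 libraries, 1 with an acinar covariate, 1 with a Y-linked covariate, and 0 to 19 when single libraries were left out (19 without alpha P22 replicate 1, 4 without alpha P8 replicate 1). The difference between the cell types (0) gave 8 without a filter, 3 with the replicate block, 2 with 37 libraries, and 0 to 23 when single libraries were left out (23 without alpha P22 replicate 1, 1 without beta P22 replicate 3 and 1 without alpha P8 replicate 1). The acinar covariate and both Y-linked settings were chosen after seeing the data. Where leaving out 1 library, or keeping 6, left an arm with 1 library, that library was assumed to vary like the others. Causes were not tested. Of 259 named genes 12 passed the threshold over both cell types with 37 libraries, 12 without alpha P22 replicate 2 and 1 without alpha P8 replicate 1. Size factors ran from 0.786 to 1.19.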

Other observations

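The summed TPM of interferon-induced genes lay between 682 and 1444 TPM in every fetal library of the series and had its highest group median in delta cells of P22, although beta P22 replicate 1 (7531 TPM) was above 2 of those 3 libraries. It ran from 682 to 871 TPM in beta cells of embryonic day E40 (6 libraries), from 888 to 986 TPM in those of E90 (2 libraries), from 815 to 867 TPM in alpha cells of E40 (3 libraries) and from 1202 to 1245 TPM in those of E90 (2 libraries). The 3 delta libraries of P22 held 5005, 6319 and 9978 TPM, against 1235 and 1314 TPM in the 2 of E90. With 2 to 6 libraries a group these are descriptions of the libraries.

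Ribosomal proteins, although higher at P22 than at P8, were lower at both ages than in the fetus. They summed to 44600 to 65290 TPM in beta cells of E40, 37240 to 38610 TPM at E90, 16710 to 18240 TPM at P8 and 20790 to 23240 TPM at P22, and in alpha cells to 43440 to 60180 TPM at E40, 42280 to 50360 TPM at E90, 17900 to 20450 TPM at P8 and 26400 to 30960 TPM at P22.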
